A study of Caenorhabditis elegans with 2 samples.

Results

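The regions described here are the peaks of HLH-12 chromatin immunoprecipitation that had their summit in an intron of a protein-coding gene and away from annotated promoters and small RNA genes. In the nematode Caenorhabditis elegans, HLH-12 is one of the transcription factors of the basic helix-loop-helix family. Chromatin came from whole young adult hermaphrodites of strain OP538 (unc-119(tm4063) III; wgIs538), harvested 64 hours after synchronization of starved first-stage larvae. The line carries a stable transgene for HLH-12 with GFP and FLAG at its C terminus, in worms that also hold the unc-119 mutation. It was immunoprecipitated through GFP, although the antibody field of the labels names hlh-12 itself. Both samples are biological replicates of this 1 group, so no condition was compared, and no sample from worms without the tagged protein was analysed here. Whole worms mix all tissues, so a site bound in few cells and a site bound weakly in many cannot be told apart.

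A peak was counted when its summit lay inside a protein-coding transcript and in no exon, outside the window from 1000 bp upstream to 200 bp downstream of every protein-coding gene 5′ end, and more than 200 bp from every tRNA, snoRNA, snRNA, rRNA or microRNA gene. In the list called by the authors on both replicates together, 1772 of 6661 nuclear peaks met this rule. They made up 26.6% of the nuclear peaks (95% Wilson interval 25.6 to 27.7), while 29.6% of nuclear bases, 29.7 of 100.3 Mb, met the same rule. Those 29.7 Mb are called eligible positions below, and each share of peaks is set beside the share of all eligible positions, counted exactly. Intervals are 95% Wilson intervals and cover the sampling of peaks only. The signal of a peak is the authors' own value for it.

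Proteins of the basic helix-loop-helix family bind DNA as dimers at the E-box, CANNTG. HLH-12 is known from C. elegans as a factor needed for the normal migration of the gonadal distal tip cells. Nematode introns are mostly short, and the longer ones, often the first of a gene, can hold enhancers, second promoters or whole nested genes.

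Among the 9 strongest regions, the E-box and TGATAA each occurred at 3, GTTCGA at 1 and GCCTAA at none. Over eligible positions the E-box occurred at 26.2%, TGATAA at 8.77%, GTTCGA at 3.04% and GCCTAA at 3.84%. Over all intronic peaks the E-box was at 28.7% and TGATAA at 6.94%. The run AAAAAA occurred at 5 of the 9, and at 53.3% of all intronic peaks against 53.1% of eligible positions. Shown is the summit with 50 bp on either side for the 4 peaks of highest signal, for the strong peak with a facing pair of E-boxes, for cpl-1 and trd-1, the next peak with TGATAA and the strongest with CACATG, and for the strongest peak inside a telomere-type repeat. Capitals mark the E-box CANNTG, the B box core GTTCGA, the GATA motif TGATAA and the telomere unit GCCTAA, each read on both strands. The plus strand of ce11 is printed.
sms-3, chrIII:1600852-1600952: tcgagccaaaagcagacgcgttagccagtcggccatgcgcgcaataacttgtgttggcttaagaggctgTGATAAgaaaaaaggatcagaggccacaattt
usp-39, chrII:2570703-2570803: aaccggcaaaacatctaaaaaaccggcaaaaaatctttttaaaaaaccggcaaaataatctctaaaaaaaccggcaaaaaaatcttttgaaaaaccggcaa
lips-10, chrII:8441647-8441747: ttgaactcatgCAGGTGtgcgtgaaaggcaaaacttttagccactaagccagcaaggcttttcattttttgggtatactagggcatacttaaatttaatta
Y57G11C.22, chrIV:14838306-14838406: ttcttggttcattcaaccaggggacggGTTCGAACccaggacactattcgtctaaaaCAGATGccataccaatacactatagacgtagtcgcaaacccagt
Y17D7C.6, chrV:18710280-18710380: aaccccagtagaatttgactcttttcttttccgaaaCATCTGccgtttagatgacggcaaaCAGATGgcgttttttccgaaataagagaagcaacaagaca
cpl-1, chrV:16593385-16593485: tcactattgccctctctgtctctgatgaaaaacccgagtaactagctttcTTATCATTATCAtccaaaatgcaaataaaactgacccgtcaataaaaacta
ZK131.11, chrII:13796438-13796538: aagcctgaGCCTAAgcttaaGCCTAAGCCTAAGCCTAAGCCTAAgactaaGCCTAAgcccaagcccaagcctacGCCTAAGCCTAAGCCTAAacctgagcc
trd-1, chrIII:7387536-7387636: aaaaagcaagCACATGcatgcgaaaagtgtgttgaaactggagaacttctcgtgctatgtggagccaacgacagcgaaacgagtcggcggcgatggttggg
The sms-3 window held TGATAA, the core letters that GATA factors bind, and no E-box. The usp-39 window was a tandem array with 5 copies of CCGGCA. The Y57G11C.22 window held GTTCGA, the core of the internal B box promoter of tRNA genes, and 1 E-box, although its nearest annotated small RNA gene lay 25631 bp away. Only the exact letters GTTCGA were searched, so tRNA-like sequence with other letters was not counted in any window. In the ZK131.11 window the telomere unit occurred 9 times.

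The 4 strongest peaks were present in both replicates, with unequal signal. The peak of highest pooled signal, 79.0, lay in the 1591 bp first intron of sms-3, which encodes a sphingomyelin synthase. Its signal was 45.8 in replicate 1 and 37.1 in replicate 2 (41.5 ± 6.13, SD, n = 2). Its summit lay 242 bp downstream of the 5′ end of sms-3, just beyond the promoter window and within the window of the start of another sms-3 transcript. The second, 76.2, lay in intron 8 of usp-39, a ubiquitin-specific protease family gene, with 28.3 in replicate 1 and 59.5 in replicate 2 (43.9 ± 22.0, SD, n = 2). It was the strongest value of replicate 2 among all intronic peaks. Of its printed window, 96.0% was soft-masked as repeat in the reference sequence, and 4 further places in the genome matched it at 90% identity or more. The third, 74.1, lay in the last intron of lips-10, a lipase-related gene, with 48.5 and 27.5 in replicates 1 and 2 (38.0 ± 14.8, SD, n = 2). The coding 5′ end nearest to its summit belonged to a different gene, 1070 bp away. The fourth, 67.7, lay in the 9612 bp second intron of Y57G11C.22, with 41.8 and 26.4 (34.1 ± 10.9, SD, n = 2). Replicate 1 was higher at sms-3, lips-10 and Y57G11C.22, and replicate 2 was higher at usp-39.

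Only 9 of the 1772 intronic peaks were in the list that the authors cut at an irreproducible discovery rate (IDR), which scores whether replicates order their peaks in the same way. That is 0.508% (0.267 to 0.962), against 3.45% of all nuclear peaks. The IDR list held 1.39% of intergenic peaks (0.892 to 2.16), 0.764% of exon peaks (0.427 to 1.36), 1.30% of promoter peaks (0.843 to 2.00) and 31.4% of peaks at small RNA genes (27.6 to 35.4). The IDR list was the 230 nuclear peaks of highest pooled signal, so it followed the signal. The other 5 intronic peaks in it lay in Y55F3BR.2 (62.8), rab-7 (61.7), Y17D7C.6 (61.1), cpl-1 (60.9) and Y111B2A.12 (60.4). rab-7 encodes a small GTPase of late endosomes and cpl-1 a cathepsin L protease. At rab-7 the replicates were close, 32.5 and 27.7 (30.1 ± 3.44, SD, n = 2), and likewise at cpl-1, 33.4 and 27.8 (30.6 ± 3.97, SD, n = 2). Y17D7C.6 was higher in replicate 1, 41.1 against 25.2. Y111B2A.12 was higher in replicate 2, 36.2 against 23.5.

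Below the IDR list, the next 11 peaks had pooled signals from 52.6 to 57.1. Their hosts were zip-7, a bZIP factor gene, Y69A2AR.31, ZK131.11, ari-1.4, trd-1, unc-60, Y41G9A.17, icl-1, fbxo-11.2, W09D6.5 and mdt-26. unc-60 encodes actin-depolymerizing cofilins, icl-1 the glyoxylate cycle enzyme of nematodes, and mdt-26 a Mediator subunit. The replicates were closest at ZK131.11, with 26.8 and 29.4 (28.1 ± 1.83, SD, n = 2), and at trd-1, with 30.1 and 33.1 (31.6 ± 2.10, SD, n = 2). The summit window of ZK131.11 was wholly soft-masked and matched 87 other places in the genome. At unc-60 replicate 1 had a peak of 43.4 and replicate 2 had none, although the pooled signal was 54.7. At ari-1.4 replicate 2 was the higher, 40.1 against 20.6, and at icl-1 also, 39.2 against 26.4.

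The share of intronic peaks grew as the signal fell. It was 3.91% of the 230 strongest nuclear peaks (2.07 to 7.27), 14.8% of ranks 231 to 500 (11.1 to 19.5) and 19.4% of ranks 501 to 1000 (16.2 to 23.1). From rank 1001 on it lay between 27.9% and 29.4%, close to the 29.6% of bases that met the rule. The slope was smaller without the peaks at small RNA genes, which filled the top of the list. Among the peaks over 200 bp from such a gene, intronic peaks were still 15.3% of the strongest 230 (9 of 59, 8.24 to 26.5), 24.4% of ranks 231 to 500 (18.5 to 31.5), 22.9% of ranks 501 to 1000 (19.1 to 27.1) and 30.1% of ranks 1001 to 2000 (27.2 to 33.1).

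**Figure D1:**
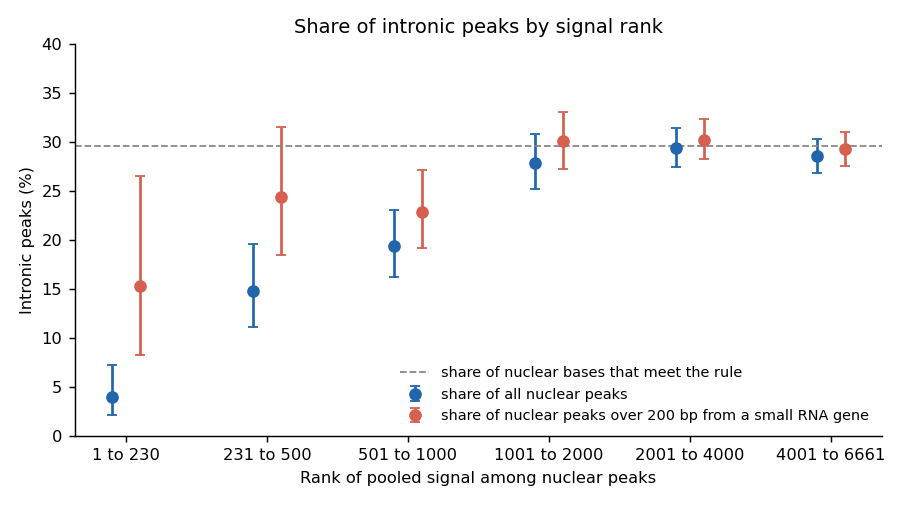
Share of intronic peaks (y axis, percent) in bins of pooled signal rank (x axis), over all nuclear peaks (blue) and over those more than 200 bp from a small RNA gene (red), with 95% Wilson intervals. The share over all nuclear peaks rises from 3.91% in the first bin to 29.4% at ranks 2001 to 4000, and the dashed line is the 29.6% of nuclear bases that meet the rule.

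Most intronic peaks had signals near the lower limit of the list. Their pooled signal had a median of 30.1 (quartiles 28.0 and 33.7), where the weakest nuclear peak of the list had 26.3 and the weakest IDR peak 57.3. Only 118 exceeded 40 and 28 exceeded 50. The medians of the other classes away from small RNA genes were alike, 29.97 for intergenic, 30.5 for exon and 30.5 for promoter peaks, while peaks at small RNA genes had 46.3.

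Both replicate lists held a peak at 1064 of the 1772 positions, 60.05% (57.7 to 62.3). Replicate 1 alone had a peak at 392, replicate 2 alone at 308, and neither at 8. The share in both lists was 58.6% for intergenic, 60.8% for exon and 60.5% for promoter peaks, and 85.9% at small RNA genes (82.7 to 88.5). Where both had a peak, the median signal was 17.4 in replicate 1 and 14.8 in replicate 2, and replicate 1 was the higher at 712 positions against 352. The median ratio of replicate 1 to replicate 2 was 1.18 (quartiles 0.921 and 1.498), against 1.19 over the other nuclear peaks. The sources used here do not give whether the signal was scaled for depth, so this ratio cannot be told apart from a difference in depth.

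Within the intronic peaks the 2 replicates did not rank the sites alike. Across the 1064 peaks in both lists, Spearman's rho was −0.04 and Pearson's r of the log2 signals 0.06. These correlations are across peaks of the same pair of libraries, and the pooled list keeps peaks by a signal close to the sum of both replicate signals (median ratio 0.985), which lowers any such correlation. The median SD between the replicates of a peak was 3.08, against an SD of 3.52 between the replicate means of different peaks. With 2 replicates a peak and a list cut by pooled signal, these SDs do not show which single intronic peaks differ. Spearman's rho was also near 0 in the classes of like signal, 0.045 for intergenic, −0.021 for exon and 0.065 for promoter peaks. At small RNA genes it was 0.49, but the lower quartile of their pooled signal was 35.2, well above the lower limit of the list.

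**Figure D2:**
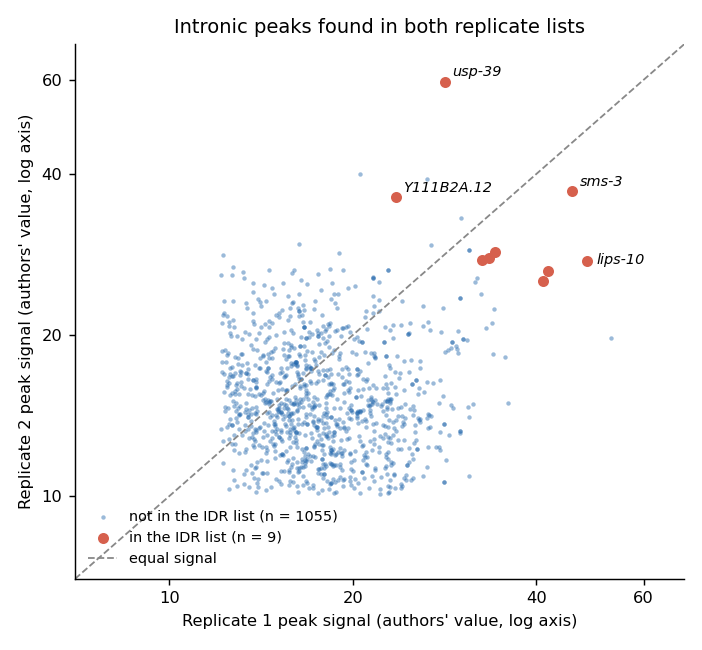
Signal of the 1064 intronic peaks present in both replicate lists, replicate 1 on the x axis and replicate 2 on the y axis, both log axes in the authors' signal values, with the 9 IDR peaks in red. The cloud has no slope, more points lie below the dashed line of equal signal than above it (712 against 352), and the IDR peaks stand at its upper right edge.

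Each replicate list was also read without the pooled list. Among the 6661 strongest nuclear peaks of replicate 1, 1765 met the same positional rule, and 265 of them overlapped one of the 6661 strongest peaks of replicate 2. This was 15.0% (13.4 to 16.8), where a peak of that width set at any eligible position would do so at 5.33% of positions. From replicate 2, 265 of 1818 overlapped, 14.6% (13.0 to 16.3), against 5.32% of positions. These were 2.82 and 2.74 times the shares of positions. Intergenic peaks overlapped at 15.8% and 15.2%, against 4.82% and 4.56% of their own positions (ratios 3.28 and 3.34). Exon peaks did so at 16.5% and 17.3%, against 5.95% and 5.96% (2.78 and 2.90), and promoter peaks at 20.7% and 21.0%, against 6.04% and 6.28% (3.42 and 3.35). Peaks at small RNA genes overlapped at 69.4% and 80.3%, but 34.2% and 40.02% of their positions would too (2.03 and 2.01). The intronic shares were below those of promoter peaks by more than their intervals, 18.7 to 22.8 and 19.0 to 23.2 for promoters. They were slightly below those of intergenic peaks, within the intervals of 13.9 to 17.9 and 13.4 to 17.2.

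The intronic peaks were spread over 1483 host genes and 1681 introns, of 17502 genes and 89464 introns with at least 1 eligible position. A single peak was found in 1262 hosts, 2 in 167, 3 in 43 and at least 4 in 11. The summit fell in the introns of more than 1 gene at 25 peaks, and 78 peaks overlapped another intronic peak. A further 7 overlapped a promoter peak, 36 an exon peak and none a peak at a small RNA gene.

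Genes with the most peaks were long. There were 5 peaks each in hlh-30, marc-5 and sms-3, which hold 16.7, 18.3 and 15.9 kb of eligible sequence, where their share of eligible bases would give about 1 peak (0.998, 1.09 and 0.950). hlh-30 encodes a basic helix-loop-helix factor related to mammalian TFEB, and marc-5 a RING-CH protein. The hosts with 4 peaks were F19C7.8, H10D18.5, Y105C5A.15, daf-2, nas-39, ric-7, saeg-1 and zfh-2. daf-2 encodes the insulin/IGF receptor, nas-39 an astacin protease, ric-7 a protein for the placing of mitochondria in axons, and zfh-2 a zinc finger homeobox factor. These hosts were picked out of 1483 for their counts, so the counts are a description.

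Among those hosts, strong and weak peaks stood side by side only in sms-3. The highest pooled signal of each other host lay between 29.0 (nas-39) and 38.6 (ric-7). In sms-3 the pooled signals, read from the 5′ end, were 79.0, 26.8, 50.1, 29.9 and 29.7. The second strongest, 2.02 kb from the 5′ end in a 9822 bp intron, had 24.0 in replicate 1 and 23.2 in replicate 2 (23.6 ± 0.622, SD, n = 2). Between these strong sites, the peak of 26.8 had no counterpart in either replicate list. In hlh-30 the signals were 26.7, 29.8, 35.7, 27.5 and 29.0, and only the last was found in both replicates, with 15.1 and 15.8 (15.4 ± 0.473, SD, n = 2). Of the others, 3 were seen in replicate 1 alone and the one of 35.7 in replicate 2 alone. In daf-2, 3 of 4 peaks lay in the 11981 bp first intron and were found in both replicates. Their mean replicate signals were 13.2 ± 2.89, 18.04 ± 2.98 and 17.2 ± 3.75 (SD, n = 2), read from the 5′ end. Both replicates were higher at the second of them (15.9 and 20.1) than at the first (15.2 and 11.2), without a test. Pairs of overlapping peaks in marc-5, ric-7 and saeg-1 drew their replicate signals from the same replicate peaks and were not separate in the replicate lists. The pair in zfh-2 shared its replicate 1 peak (19.2) and had different signals in replicate 2 (11.2 and 12.03).

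**Figure D3:**
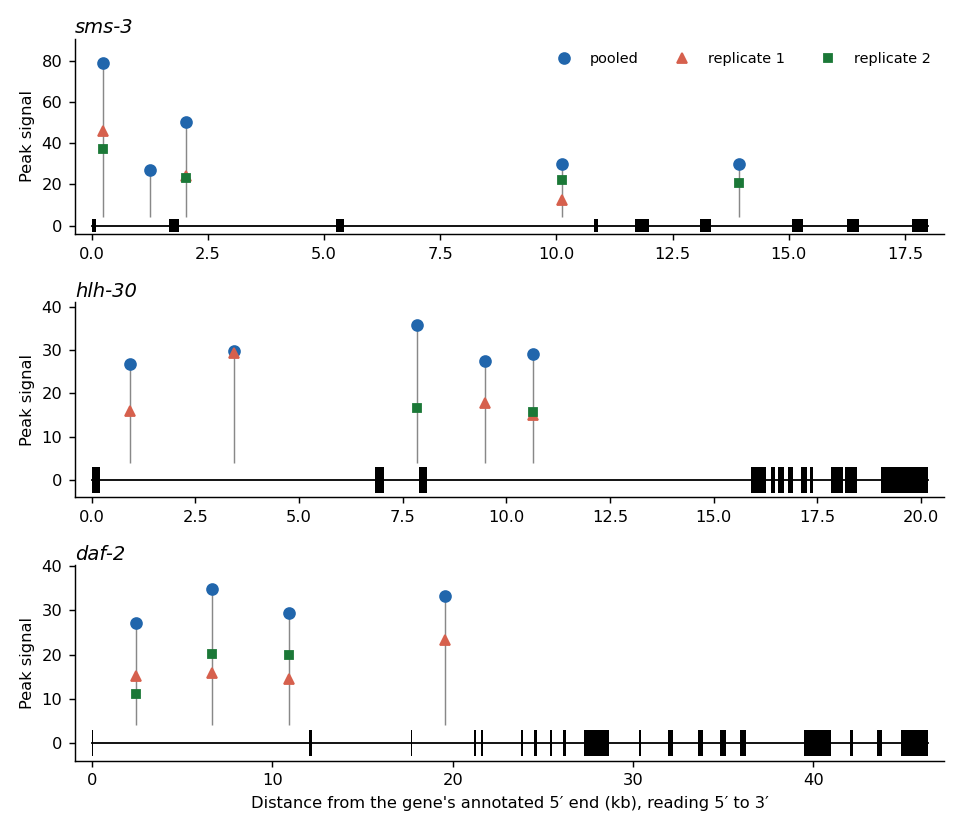
Intronic peaks along sms-3, hlh-30 and daf-2, with the distance from the annotated 5′ end in kb on the x axis and peak signal (authors' value) on the y axis for the pooled list and each replicate; black boxes on the line at 0 are exons of protein-coding transcripts. The sms-3 peak next to the 5′ end reaches 79.0, whereas the hlh-30 and daf-2 peaks lie between 26.7 and 35.7 and several lack a marker for 1 replicate.

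The host introns were of middling length. Their median was 833 bp (781 to 882), with a range from 40 to 100912 bp, against 952 bp when every eligible position is weighted equally. Introns of 300 to 1000 bp held 41.0% of the peaks (38.7 to 43.3) and 34.9% of eligible positions, and the share was 40.6% in the replicate 1 list and 42.2% in that of replicate 2. Introns of 1000 to 3000 bp held 23.3% (21.4 to 25.3) against 27.5%, again alike in each replicate (22.9% and 22.5%). Shorter introns held shares equal to their bases, 8.01% against 8.05% under 100 bp and 8.80% against 8.80% from 100 to 300 bp. Introns of 10000 bp or more held 3.61% (2.84 to 4.59) against 3.96%. The shift from introns over 1000 bp to those of 300 to 1000 bp exceeded the interval in the pooled list and was present in both replicates.

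**Figure D4:**
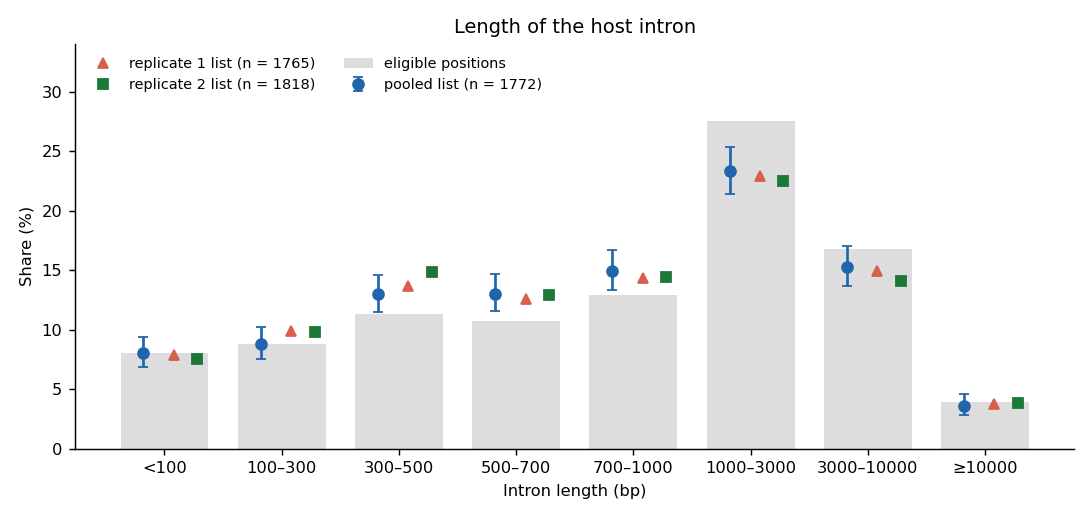
Share of peaks (y axis, percent) by length of the host intron (x axis, bp). Grey bars are eligible positions, blue points the 1772 pooled peaks with 95% Wilson intervals, red triangles and green squares the intronic peaks among the 6661 strongest of each replicate; all 3 lists lie above the bars from 300 to 1000 bp and below them from 1000 to 10000 bp.

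First introns held 493 peaks, 27.8% (25.8 to 29.95), against 24.2% of eligible positions. The share was 27.0% in the replicate 1 list and 25.4% in that of replicate 2 (23.5 to 27.5), whose interval includes the background. Last introns held 16.2% (14.6 to 17.98) against 13.97%, and 15.4% and 15.8% in the replicates. Part of the first-intron share lay near other transcript starts. Windows of 1000 bp upstream to 200 bp downstream of a start used by another transcript of any coding gene held 12.9% of the peaks (11.4 to 14.6) against 10.8%. First introns beyond those windows held 21.0% of all intronic peaks (19.2 to 23.0) against 19.5% of all eligible positions. Of the 1543 peaks outside those windows, 24.2% (22.1 to 26.4) lay in first introns, against 21.9% of the positions outside them. Peaks within 1000 bp of a coding 5′ end on either side were 25.7% (23.8 to 27.8) against 21.7%, with 25.6% and 24.97% in the replicates.

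Along an intron the summits were spread evenly. The 5 equal parts of the host intron, from its 5′ to its 3′ end, held between 18.5% and 20.5% of the summits, and eligible positions between 19.3% and 20.5%. The median distance from summit to the nearest exon was 165 bp against 178 bp. Summits 500 bp or more from any exon were 17.9% (16.2 to 19.7) against 21.8%, with 17.3% and 17.8% in the replicates. Nearly all pooled peaks were 436 bp wide, so 59.9% of the intronic peaks (57.6 to 62.2) reached into an exon, against 55.7% of eligible positions. Pseudogenes and noncoding RNA genes outside the small RNA classes, with piRNA genes left out, lay within 200 bp of 3.67% of summits (2.89 to 4.65) against 2.80%.

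Base composition set the intronic peaks apart from their background more than intron length, intron order or chromosome did. GC within 50 bp of the summit averaged 35.7%, against 32.9% over eligible positions. A GC of 45% or more was found at 287 peaks, 16.2% (14.6 to 17.98), against 8.08% of eligible positions, a ratio of 2.00. In the replicate lists the share was 15.2% and 13.0%. A GC under 25% was found at 11.5% (10.1 to 13.1) against 17.7%. Among the 886 peaks of higher pooled signal 18.3% had 45% GC or more, and among the 886 of lower signal 14.1%. The shift was not particular to introns. Mean GC was 36.9% at intergenic peaks against 34.2% of their bases, 42.2% against 40.1% in exons and 38.3% against 35.1% in promoters. No control library was analysed here, so GC of the bound sites and GC of the sequenced fragments cannot be told apart.

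**Figure D5:**
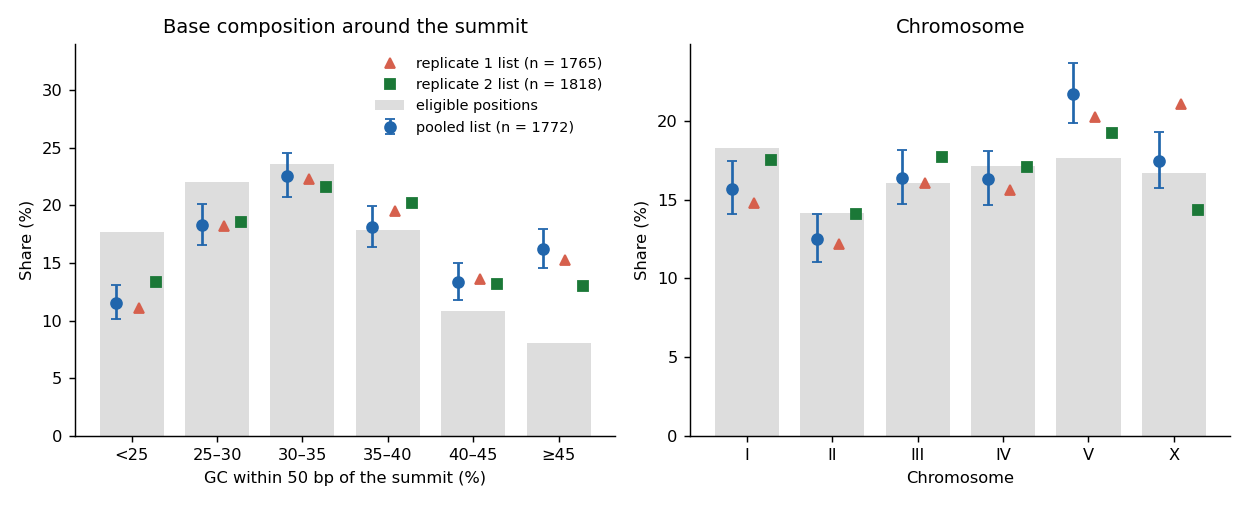
Left, share of peaks (y axis, percent) by GC within 50 bp of the summit (x axis, percent); right, share by chromosome, with eligible positions as grey bars, pooled peaks as blue points with 95% Wilson intervals, and the replicate lists as red triangles and green squares. All 3 lists exceed the bar at 45% GC and above, while at chromosome X replicate 1 lies above the bar (21.1% against 16.7%) and replicate 2 below it (14.4%).

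The longer introns' deficit remained when eligible positions were weighted to the GC of the peaks. The expected share of introns of 300 to 1000 bp was then 34.1% against the 41.0% found, and that of introns of 1000 to 3000 bp 27.3% against 23.3%. That of first introns was 24.4% against 27.8%.

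Chromosome V held 385 intronic peaks, 21.7% (19.9 to 23.7), against 17.7% of eligible positions, and 20.3% and 19.3% in the replicate lists. Among the intergenic peaks chromosome V had 19.6% against 20.9% of bases, among exon peaks 23.3% against 21.3%, and among promoter peaks 23.0% against 25.03%. Chromosome I held 15.7% (14.1 to 17.5) against 18.3%, with 14.8% in replicate 1 and 17.5% in replicate 2. Chromosome X held 17.4% in the pooled list (15.7 to 19.3) against 16.7%, but 21.1% in replicate 1 and 14.4% in replicate 2, on opposite sides of the background. The remaining chromosomes held 12.5% (II), 16.4% (III) and 16.3% (IV) against 14.1%, 16.1% and 17.1%.

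E-boxes were slightly more frequent at the pooled summits than elsewhere in introns, and not in both replicate lists. CANNTG, read on both strands, occurred within 50 bp of 509 summits, 28.7% (26.7 to 30.9), against 26.2% of eligible positions and 27.5% of positions weighted to the GC of the peaks. In the replicate lists the share was 26.6% and 25.03%, both below the pooled share and on either side of the background. Of the 886 peaks of higher signal 27.9% had an E-box, and of the 886 of lower signal 29.6%. Of the 10 E-box classes, CAGCTG was found at 1.98% (1.42 to 2.73) against 1.38%, or 1.60% at matched GC, and CACCTG at 2.88% (2.20 to 3.76) against 2.07%, or 2.43%. CACATG was at 2.71% (2.05 to 3.57) against 2.62%, trd-1 being its strongest peak, and CAAATG, the most frequent, at 8.35% (7.15 to 9.73) against 7.19%. The 3 E-box peaks among the 9 in the IDR list were lips-10 with 1 CACCTG (read as CAGGTG in the printed strand), Y57G11C.22 with CAGATG, and Y17D7C.6 with CATCTG and CAGATG, which are the reverse complement of each other. Y69A2AR.31, the eleventh peak by signal, also had CAGATG and CATCTG in its window.

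Other known motifs were no more frequent. GTTCGA occurred at 2.26% of summits (1.66 to 3.06) against 3.04% of eligible positions, and at 3.23% and 3.30% in the replicate lists. TGATAA was at 6.94% (5.85 to 8.22) against 8.77%, or 7.93% at matched GC. Of the 9 IDR peaks 3 had it, sms-3, cpl-1 and Y111B2A.12 (interval for 3 of 9, 12.1 to 64.6%). GAGAGA was at 4.97% (4.05 to 6.08) against 4.15%, or 4.93% at matched GC.

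Over all 6-mers, each taken with its reverse complement, 54 stood at 1.5 times or more their share over eligible positions and in at least 3% of the peaks, which is 2.6% of the 6-mers. They were rich in G and C. At least 4 of the 6 letters were G or C in 43 of them, and 21 held CG. CGCGCC led, at 3.72% of summits (2.94 to 4.71) against 1.46%, followed by CGCCGC at 3.10% (2.39 to 4.02) against 1.30%. With eligible positions weighted to the GC of the peaks, only 5 of the 54 stayed at 1.5 times or more. These were AAGCCT, at 6.43% (5.38 to 7.67) against 3.82%, CTAGGC, at 4.91% (4.00 to 6.02) against 3.02%, CGCCTA, at 3.39% against 2.19%, GGCTTA, at 4.63% against 2.99%, and GGCCGA, at 4.18% against 2.71%. None of them contains or is part of an E-box. AAGCCT and GGCTTA are the tandem repeat of the telomere unit GCCTAA read from another base, GGCTTA on the other strand. GCCTAA itself and its further shifts AGCCTA and CTAAGC were also among the 54. GCCTAA was added to the motif search after the ZK131.11 sequence had been seen. It was at 6.21% (5.18 to 7.43) against 3.84%, or 4.26% at matched GC. The least frequent relative to background were AGTGTA, at 2.09% against 3.42%, and ACAATA, at 4.23% against 6.90%.

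Sequence with long copies elsewhere and wholly soft-masked sequence were not over-represented. A copy at 90% identity or more over at least 80 bp of the window was found elsewhere in the genome for 140 peaks, 7.90% (6.73 to 9.25), against 14.1% of eligible positions sampled at every 5000th base (13.2 to 15.0). The sources used here do not give how reads matching several places were treated, so fewer peaks in copied sequence and fewer mappable reads cannot be told apart. Summits in wholly soft-masked windows were likewise fewer, 5.64% (4.66 to 6.82) against 9.16%. Peaks with and without a copy had the same median signal, 30.1 in each.

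Of 29 genes with a known part in distal tip cell migration, 5 were hosts, beside 1483 of the 17502 genes with eligible positions. They held 6 intronic peaks, 0.339% of all (0.155 to 0.737), an interval that includes the 0.575% of eligible positions in these genes. The strongest lay in lin-42, the Period relative of the heterochronic pathway, with a pooled signal of 36.3 and replicate signals of 20.4 and 13.7 (17.0 ± 4.73, SD, n = 2). The peak in unc-6, which encodes netrin, had 36.2 and was seen in replicate 1 alone, as was that in daf-12, a nuclear receptor gene, with 31.1. That in fbl-1, which encodes fibulin, had 29.6 and was seen in replicate 2 alone. dre-1, an F-box gene, had 28.5 with 14.7 and 10.4 in the replicates (12.5 ± 3.02, SD, n = 2), and the second lin-42 peak had 27.4 in replicate 2 alone. So 2 of the 6 were found in both replicates, and none was in the IDR list. No pooled summit lay inside hlh-12 itself, which offers 212 eligible bases, or inside unc-119, with 5239.

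Of all the gene lists compared, only nuclear receptor and basic helix-loop-helix genes exceeded their share of eligible positions by more than the interval. No list was tested, and homeobox genes lay below their share, within the interval. Nuclear receptor genes held 38 peaks in 29 hosts, 2.14% (1.57 to 2.93) against 1.47% of eligible positions. The strongest were in nhr-49, a regulator of fat metabolism, with 49.03 (20.1 and 24.7 in the replicates), nhr-146 with 44.5, nhr-19 with 41.6 and nhr-216 with 38.1. Basic helix-loop-helix genes held 9 peaks in 4 hosts, 0.508% (0.267 to 0.962) against 0.219%, but 5 of the 9 lay in hlh-30, and the rest were 1 each in hif-1 (37.8) and lin-22 (32.1) and 2 in hlh-11 (27.5 each). Homeobox genes held 12 peaks, 0.677% (0.388 to 1.18) against 0.805%, led by ttx-1 (42.2) and ceh-92 (41.4), then ceh-40 (39.998) and ceh-62 (36.4).

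For each list of neuronal genes the interval of the share of peaks included the share of eligible positions. Potassium channel genes held 32 peaks, 1.81% (1.28 to 2.54) against 1.57%, led by irk-3 (49.4), twk-13 (38.0), irk-2 (37.9) and shw-3 (33.8). Ligand-gated channel genes held 20, 1.13% (0.732 to 1.74) against 1.01%, led by lgc-51 (51.004), lgc-31 (50.6), lgc-1 (46.3) and nmr-2 (39.8). Neurotransmitter and peptide receptor genes held 29, 1.64% (1.14 to 2.34) against 1.64%, led by sprr-2 (41.7), npr-42 (37.3), ser-2 (36.9) and npr-37 (36.8). Neuropeptide and insulin genes held 11, 0.621% (0.347 to 1.11) against 0.365%, led by lury-1 (36.1), nlp-56 (36.0), nlp-40 (34.5) and ins-30 (34.1). Calcium and sodium leak channel genes held 4, in unc-2 (30.3) and cca-1 (28.6), 0.226% (0.0878 to 0.579) against 0.440%. Chemoreceptor genes held 52, 2.93% (2.24 to 3.83) against 3.01%, led by srh-231 (42.6), str-46 (39.8), srt-29 (39.3) and srt-52 (37.6).

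The lists of muscle, adhesion, matrix and signalling genes lay on either side of their share of positions, each with an interval that included it. Muscle genes held 20 peaks, 1.13% (0.732 to 1.74) against 0.904%. They were led by unc-60 (54.7) and dys-1, the dystrophin gene (46.0), then cpn-2 (36.6) and unc-96 (35.5). Cell adhesion and axon guidance genes held 24, 1.35% (0.912 to 2.01) against 1.53%, led by the cadherin genes cdh-10 (44.9), cdh-12 (38.0) and cdh-1 (37.0). Basement membrane and integrin genes held 5, 0.282% (0.121 to 0.659) against 0.459%, led by unc-52, the perlecan gene (37.1), him-4 (31.4) and ddr-2 (31.2). Wnt and Notch genes held 7, 0.395% (0.191 to 0.813) against 0.508%, in wrm-1, a beta-catenin gene (44.9), lag-1 (32.7), lin-17 (30.9) and cfz-2 (27.0) among others. Cuticle collagens held 2, in col-71 (40.1) and col-104 (37.0), 0.113% (0.0310 to 0.411) against 0.163%. Ribosomal protein genes held 1, in rps-9 (29.2), 0.0564% (0.00996 to 0.319) against 0.0140%. In all, 269 peaks lay in the genes of the 16 lists, 15.2% (13.6 to 16.9) against 14.2%.

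The intronic peak nearest to a small RNA gene lay in ppfr-1, 229 bp from it, with a pooled signal of 40.6 and replicate signals of 24.4 and 13.97. The farthest one left out, in ser-2, lay 168 bp from such a gene, with a lower pooled signal of 32.6 and higher replicate signals of 49.4 and 24.2. Those replicate signals are of the highest overlapping replicate peaks, which can belong to a neighbouring peak. The peak nearest to a promoter window lay 1 base outside it in tbc-7, with 28.9, and the one just left out, in dhhc-3, on the last base of a window, had 29.9. The peak nearest to an exon lay 1 base from it in F21D5.7, with 27.9. The distance to small RNA genes alone left out 87 peaks and the promoter windows alone 189.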

How the data were processed

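ChIP-seq peak lists of 2 biological replicates, 1 group per the labels, were analysed in ce11. The signal value of each peak and its −log10 q-value were deposited by the authors with each list; the p-value column held no values. The sources used here do not give the aligner or the peak caller, and depth is unknown. The lists held 19792 peaks (replicate 1), 22570 (replicate 2), 6676 (pooled) and 245 (IDR), of which 6661 pooled and 230 IDR peaks were nuclear. Of the pooled nuclear peaks 99.985% were 436 bp wide.

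Summits were placed in Ensembl 115 genes of WBcel235, with the shortest coding intron over a summit as its host intron. The background was every eligible base, without resampling. Shares have 95% Wilson intervals and medians binomial order-statistic intervals; no test compared groups. A replicate's signal at a peak was its highest overlapping peak (1 bp or more), which can belong to a neighbour. Copies came from blastn 2.17.0; other steps used Python 3.11.15, numpy 2.4.6, pandas 2.3.3 and scipy 1.17.1. The counting was checked on simulated summits.

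Genes named are hosts of the 20 strongest peaks, hosts with the most peaks, all hosts of the distal tip cell list, up to 4 of each other list, hlh-12, unc-119 and peaks at the rule's edges. The rule, lists, motifs and alternatives were chosen with earlier results of these data known. The alternatives were other promoter windows and starts, exons of protein-coding genes only, other distances and motif windows, and stricter overlap. Also used were the middle of the peak, neighbouring summits left out, the 886 peaks of higher signal, each replicate alone and the intron of the longest transcript. The last was added after seeing the data. The ce10 lists were not used here.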

Additional observations from a re-analysis of the deposited data

How the results depend on the processing

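Of 142 recomputed values, 117 were called unmoved and 25 moved, for shares and medians by whether they stayed inside the main interval. The number of intronic peaks has no interval and was judged by a fold range instead. It ran from 1415 to 1855. Taking the middle of the peak as its position changed no value, and leaving out neighbouring summits removed only 2 peaks. Those alternatives could hardly move a value, so the 117 is not a measure of robustness. Promoter windows of 500 bp upstream gave a share of nuclear peaks of 27.8%. Windows of 2000 bp upstream and 500 bp downstream gave 21.2%, with a median intron of 937 bp, 47.2% in introns of 1000 bp or longer and 24.0% in first introns. Windows at all coding transcript starts gave 23.2%, 780 bp, 39.5% and 24.2%. The background moved alike, for first introns to 20.6% and 21.9%. With the windows of 2000 bp upstream and 500 bp downstream, 5 intronic peaks remained in the IDR list, against 9 in the main setting. With 1 replicate list alone, E-boxes were at 25.03% to 26.6%, GTTCGA at 3.23% to 3.30%, chromosome X at 14.4% to 21.1% and first introns at 25.4% to 27.0%. The E-box share and that of chromosome X thus crossed their backgrounds of 26.2% and 16.7% in replicate 2, and GTTCGA its background of 3.04% in both lists. Within 25 bp of summits E-boxes were at 14.9%, CACATG at 1.24% and GTTCGA at 1.016%, and within 100 bp at 48.4%, 5.30% and 6.32%, as wider windows hold more sequence. With an overlap of 50% of the pooled peak required, both lists held 54.0% of the peaks. Among the 886 peaks of higher signal this was 74.7%, and 39.7% lay in introns of 1000 bp or longer. Where not stated, the cause was not tested. No paired analysis was possible because there is 1 group. Depth is unknown, and most signals lay near the lower limit of the list.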
